A study of Nasonia vitripennis with 76 samples.

Results

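The genes described here are the cuticle protein families of the parasitoid wasp Nasonia vitripennis, whose products are secreted by the epidermis and laid down with chitin to form the exoskeleton. They were chosen by symbol, as all genes of the counts table named CPR, CPLCP, CPF, CPG, Cpap or TWDL. Of 14621 genes, 46 carried such a symbol, and 36 reached a mean of 1 TPM (a level scaled to gene length and to the library) in at least 1 of 16 sample groups. The 36 were 25 of 35 CPR genes, all 3 CPLCP genes, all 6 Cpap3 genes and both TWDL genes, and no symbol began with CPF or CPG. CPR57, with a highest group mean of 1.02 TPM, was just inside the limit, and CPR29, with 0.978 TPM, was just outside it. A limit of 5 TPM would have kept 28 genes.

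CPR proteins carry the Rebers and Riddiford consensus, a stretch that binds chitin, and form the largest cuticle protein family of arthropods. Cpap3 proteins resemble the peritrophins of the gut lining, bind chitin through repeated cysteine-rich domains and are called obstructors in Drosophila. CPLCP proteins are rich in low-complexity sequence, and TWDL proteins are named after Tweedle, a Drosophila mutant with a short and stout body. In an adult insect that has just emerged, the cuticle is still being thickened, hardened and darkened, so transcripts of these genes are known to be measurable at that age. Which kind of cuticle each CPR gene of this wasp serves is not given in the sources used here.

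The libraries hold polyadenylated RNA of adult heads or abdomens taken 1 day after emergence. In this wasp unfertilised eggs normally give haploid males and fertilised eggs diploid females. Every wasp came from the TRA line, founded by knocking down transformer, the gene that directs female development, so all groups share that origin and no other line was compared. At F2 and F14 the females carried 2 (2N) or 3 (3N) chromosome sets. At F3 and F15 the males carried 1 (1N) or 2 (2N). F2 and F3 are called early here, and F14 and F15 late. Each combination of sex, ploidy, generation and tissue is 1 group of 5 libraries, but 2 abdomen groups, F2 2N females and F3 2N males, have 3. Whether a library is 1 wasp or a pool is not stated in the labels, so each p-value measures only the spread between these libraries. No group spans generations, so a difference between generations cannot be told apart from one between batches.

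Total counts per library, in megacounts (M), ran from 14.2 M to 60.1 M over the 75 libraries used, with a median of 21.6 M. The library A34, labelled as a head of F2 3N females, was left out: it held 0 TPM of Lop1, an opsin of the eye, and 823 TPM of oskar, a germ plasm gene of the ovary, and its closest match was an abdomen of F2 3N females (A36, r = 0.995). Among the cuticle genes it held 403 TPM of CPR39 and 0 TPM of CPR48, whereas the other 4 libraries of its group held at most 2.71 TPM of CPR39 and at least 117 TPM of CPR48. The remaining 39 heads held from 964 to 22908 TPM of Lop1, and the 36 abdomens at most 4.80 TPM. A35 of the same group matched a head of F3 1N males best (A2A, r = 0.967), and A55 of F14 3N female heads matched a 2N head (A62, r = 0.983). A28 of F2 2N female abdomens held few counts of these genes (0.0062% of its total) and matched an abdomen of F14 3N females best (A59, r = 0.968). Some other libraries, among them A56, A57, A58 and A60 of F14 3N female abdomens, also matched a library of another ploidy best. The knocked-down gene, Tra, was present in every group, at means from 386 to 1011 TPM in female heads and from 26.2 to 134 TPM in the 8 male groups. Female abdomens averaged 73.1 CPM of Tra, beside 79.9 CPM in male heads and 44.0 CPM in male abdomens, each sex scaled in its own fit.

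Levels differed by orders of magnitude within the CPR family. Averaged over the 16 groups, CPR48 stood at 7471 TPM, CPR19 at 860.4 TPM, CPR16 at 505 TPM, CPR34 at 218 TPM and CPR39 at 209.8 TPM. The highest gene of each other family was lower, with 33.8 TPM for Cpap3-d1, 8.53 TPM for CPLCP2 and 2.92 TPM for TWDL1. Only 8 genes, all of them CPR, reached 1 TPM in each of the 16 groups, and 10 did so in 3 groups or fewer. Most genes had their highest group mean in males (28 of 36), in an early generation (26) and in an abdomen (20), and the abdomen of F3 1N males alone was the highest group of 12 genes. The same count was not made over all genes. A gene near the limit of 1 TPM is a member only through its highest group.

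Many of these genes lie beside each other. In the gene order of the reference assembly Nvit_psr_1.1, 31 of the 46 symbols fell into 7 runs of neighbours. In a run of 13 CPR genes on chromosome 5, 8 genes never reached 1 TPM in any group mean, and CPR1, CPR7, CPR8, CPR9 and CPR59 did so in 8, 5, 1, 2 and 3 groups. The highest group means in that run were 31.7 TPM for CPR7 and 22.7 TPM for CPR1. The run of CPR16, CPR18, CPR19 and CPR20 on chromosome 1 differed, since each of its 4 genes reached 1 TPM in all 16 groups. The other runs were CPR43 to CPR45, CPR46 with CPR47, and TWDL1 with TWDL2 on chromosome 1, CPR39 with CPR40 on chromosome 2, and 5 Cpap3 genes on chromosome 5. CPR1 and CPR59 overlap in that assembly, as do Cpap3-d1 and Cpap3-d2, so reads may be split between them.

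Heads and abdomens were compared within each sex, as a mean over ploidies and generations. Differences between groups are given as log2 differences with their standard error, from edgeR's quasi-likelihood test on counts with Benjamini-Hochberg adjustment over all genes of a fit, and a gene is called at an adjusted p below 0.05. In females 18 of 28 tested members were higher in heads and 8 were higher in abdomens. Of all tested genes 88.7% were called, 44.4% higher in heads and 44.3% higher in abdomens. In males 11 of 31 were higher in heads and 17 in abdomens, with 80.5% of all genes called (40.7% higher in heads and 39.8% in abdomens). The median difference (head minus abdomen) was 2.24 in females and −1.13 in males, beside 0.06 and 0.01 over all tested genes. The share of members called was near that of all genes in both sexes. In whole heads and abdomens, fewer cells of a type and less RNA per cell cannot be told apart.

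CPR48 was the extreme head gene. In F3 1N male heads it stood at 44946, 58653, 54036, 142054 and 95652 TPM, and in the abdomens of the same group at 29.1, 7.03, 0, 0 and 0 TPM. In all 18 female abdomens it was at most 0.71 TPM, while the lowest female head held 117 TPM. Heads and abdomens did not overlap in either sex, and the log2 difference was 14.67 ± 0.72 in females (adjusted p = 2.20e-18) and 14.86 ± 0.95 in males (adjusted p = 8.69e-14). In the 5 F3 1N male heads this gene alone took from 0.701% to 2.75% of all counts.

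The Cpap3 genes also leaned to the head. All 6 were called higher in female heads, led by Cpap3-a1 with 8.66 ± 0.77 (adjusted p = 2.56e-10), and 4 of 6 were called higher in male heads. Cpap3-a1 was listed at 0 TPM in 17 of 18 female abdomens, and in male heads it was higher by 8.07 ± 0.62 (adjusted p = 1.39e-12). Cpap3-d2 was higher in male heads by 3.93 ± 0.25 (adjusted p = 5.39e-16). CPLCP2 was higher in heads by 6.33 ± 0.30 in females (adjusted p = 7.78e-20) and by 3.42 ± 0.32 in males (adjusted p = 9.78e-12).

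The abdomen held a different set. As a mean over ploidies and generations, CPR18, CPR19 and CPR20, neighbours on chromosome 1, were higher in the abdomen in both sexes. The differences were 1.54 ± 0.30, 0.88 ± 0.28 and 1.77 ± 0.31 in females and 3.47 ± 0.25, 4.04 ± 0.20 and 3.17 ± 0.25 in males (largest adjusted p = 0.00398). In F2 2N females, however, CPR19 averaged 170 CPM in heads and 123 CPM in abdomens, each tissue scaled in its own fit. In males CPR7 was higher in the abdomen by 5.07 ± 0.48 (adjusted p = 1.43e-11) and CPLCP1 by 4.38 ± 0.28 (adjusted p = 2.77e-16). Both TWDL genes were called higher in male abdomens, and TWDL2 alone in female ones. TWDL1 had a difference of −0.01 ± 0.29 in females (adjusted p = 0.972).

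As a mean over ploidies and generations, a further group of genes leaned to the head in females and to the abdomen in males. CPR16, CPR23, CPR34, CPR37, CPR47 and Cpap3-b passed the test in opposite directions. CPR16 was 1.77 ± 0.24 higher in female heads (adjusted p = 5.55e-08) and 1.45 ± 0.12 lower in male heads (adjusted p = 9.54e-13). Cpap3-b differed by 3.10 ± 0.38 in females (adjusted p = 4.20e-09) and by −1.39 ± 0.25 in males (adjusted p = 4.90e-06). The male lean did not hold in every group. In F15 1N males Cpap3-b averaged 6.7 TPM in heads and 5.29 TPM in abdomens. It averaged 9.08 and 24.6 TPM at F3 1N, 3.95 and 12.5 TPM at F3 2N, and 2.18 and 4.05 TPM at F15 2N. CPR34 averaged 152 CPM in F15 2N male heads and at most 147 CPM in any 2N abdomen group, each tissue scaled in its own fit. The difference between the sexes in the contrast of head and abdomen was not tested as an interaction. The plot of head against abdomen differences shows these 6 genes in its lower right part.

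**Figure D1:**
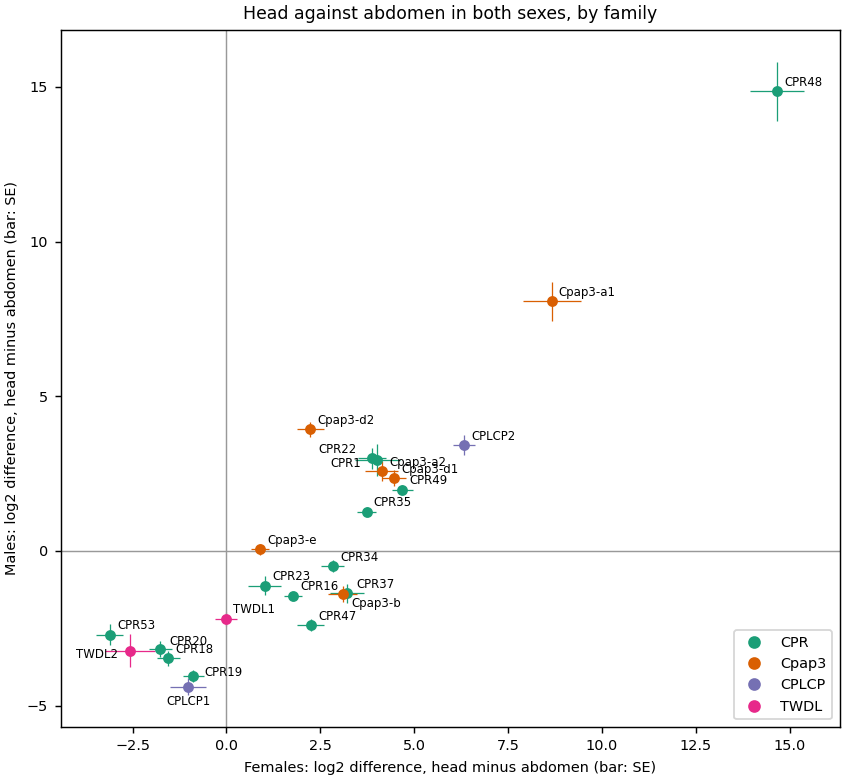
Head minus abdomen as a log2 difference, averaged over ploidies and generations, with bars of 1 SE. Females (x axis) and males (y axis) are shown for 24 genes of the 4 families. CPR48 lies far to the upper right, the Cpap3 genes lie to the right of 0, and CPR16, CPR23, CPR34, CPR37, CPR47 and Cpap3-b lie at the lower right, higher in female heads and lower in male heads.

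CPR39 and CPR40, adjacent on chromosome 2, were genes of the female abdomen. CPR39 held 703, 953 and 653 TPM in F2 2N abdomens, from 338 to 574 TPM in F2 3N ones, from 340.2 to 1480.2 TPM in F14 2N ones and from 196 to 2202 TPM in F14 3N ones. It was listed at 0 TPM in all 18 male abdomens, and no head held more than 26.8 TPM. CPR40 was lower and followed the same division, with 2.94 to 47.7 TPM in female abdomens and 0 TPM in 17 of 18 male ones. At 2N, female abdomens held at least 4161-fold more CPR39 and at least 75.8-fold more CPR40 than male ones (adjusted p = 1.16e-11 and 1.61e-08), against a floor of 3 counts over the 8 male libraries. The ovary markers oskar and nanos divided the abdomens in the same way. Both markers were present, their sum ran from 841 to 1393 TPM in the female abdomens and from 0.54 to 8.22 TPM in the male ones, and its part in the result was not tested. Ploidy did not pass the test for CPR39 in female abdomens (−0.88 ± 0.46 at F2, adjusted p = 0.373, and 0.15 ± 0.40 at F14, adjusted p = 0.825).

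**Figure D2:**
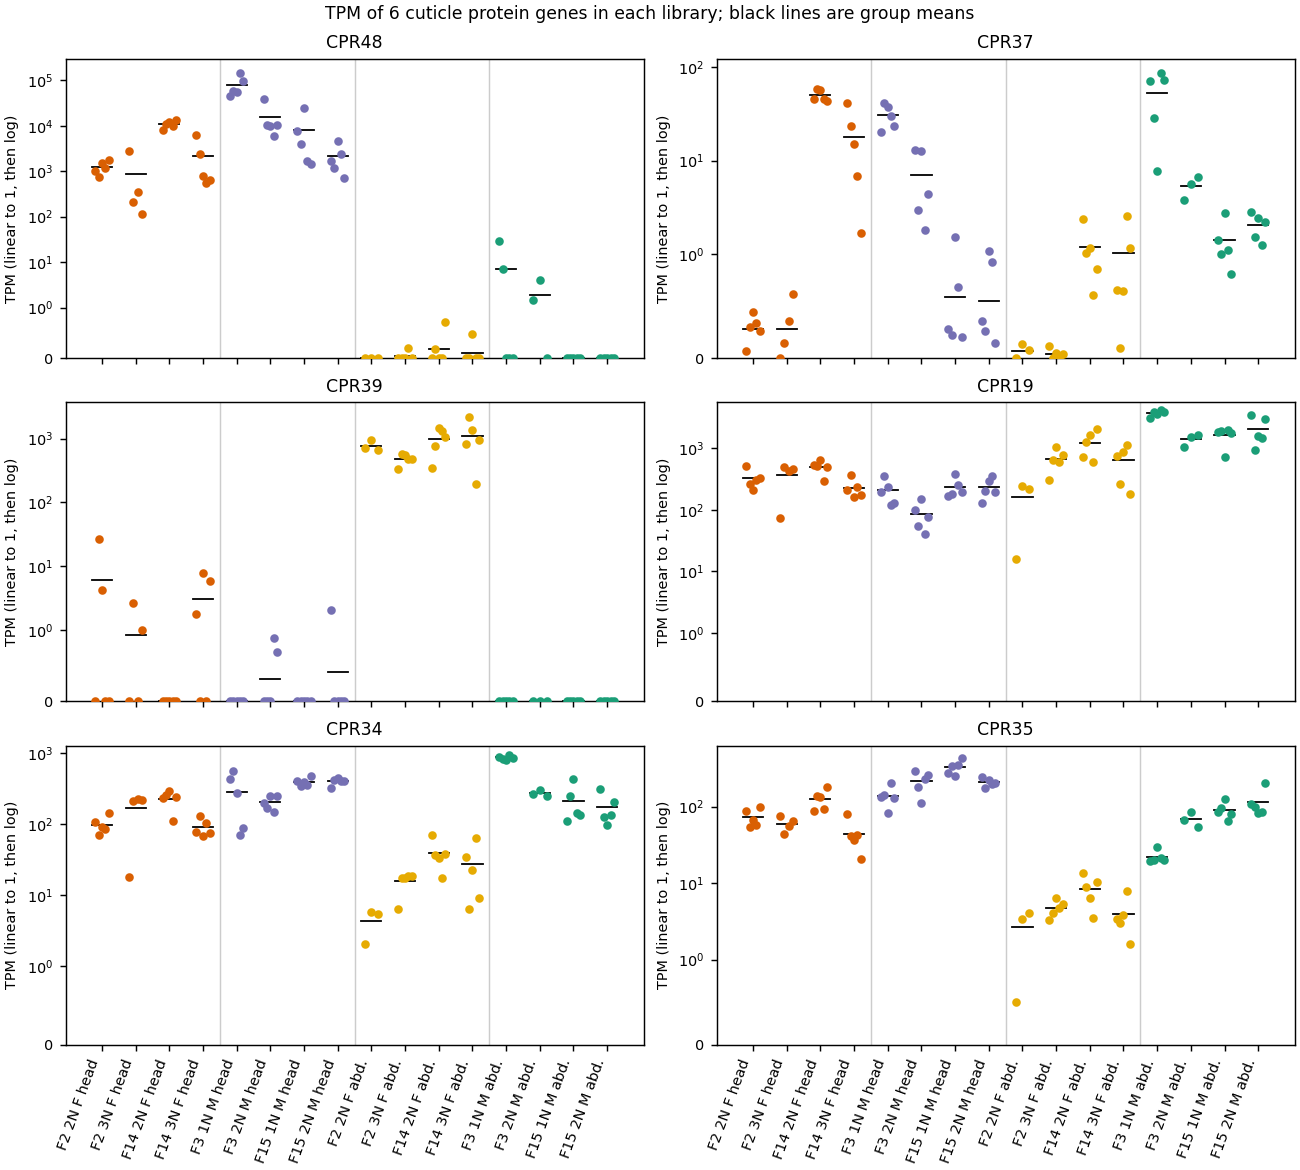
TPM per library (axis linear to 1, then log) of CPR48, CPR37, CPR39, CPR19, CPR34 and CPR35 in the 16 groups, with each point a library and each black line the group mean. CPR39 is present in the female abdomens, CPR37 is high in late female heads and early males, and CPR48 is highest in F3 1N male heads.

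Sex was compared at 2N, the ploidy that both sexes share, as male minus female and as a mean over the early and late generations. Females came from F2 and F14 and males from F3 and F15, so a sex difference cannot be told apart from one between those generations or their batches. In abdomens 18 of 29 tested members were higher in males and 3 in females. The share called, 72.4%, was below the 85.8% of all tested genes. Of all tested genes 45.9% were higher in males and 39.9% higher in females. The median difference was 2.39, beside 0.26 over all tested genes. All 3 CPLCP genes and 11 of 19 tested CPR genes were higher in males. The 3 genes higher in females were CPR39, CPR40 and Cpap3-d2.

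CPR16 illustrates the male abdomen. It stood at 1037, 1078 and 999 TPM in F3 2N males and at 1610.4, 779, 1138, 1123 and 1596 TPM in F15 2N males, whereas the 8 libraries of 2N females held 4.45 to 240.4 TPM with no overlap. The log2 difference was 4.60 ± 0.41 (adjusted p = 1.07e-11). Cpap3-b differed by 4.63 ± 0.45 (adjusted p = 4.82e-11), and CPR7, with at most 0.3 TPM in any of the 8 female libraries and 4.63 to 73.4 TPM in the 8 male ones, by 8.04 ± 0.75 (adjusted p = 9.82e-11). CPR7 belongs to the run of 13 genes on chromosome 5, and its highest group mean was in F15 2N male abdomens.

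Heads differed less by sex. Among 27 tested members 8 were higher in males and 3 in females, and the median was 0.33 beside 0.02. Of all genes 34.6% were called, 19.5% higher in males and 15.1% higher in females. Cpap3-e, the obstructor gene whose Drosophila relative shapes the larval body, was higher in male heads by 2.29 ± 0.27 (adjusted p = 4.62e-08). CPR35 was higher in males by 1.04 ± 0.21 (adjusted p = 0.000267), and CPR22 and CPR19 were higher in females, by 2.21 ± 0.39 (adjusted p = 4.03e-05) and 1.61 ± 0.28 (adjusted p = 3.30e-05). Libraries of the sexes overlapped for each of the 11 called genes. CPR1 was higher in males by 1.67 ± 0.61 (adjusted p = 0.0313), a call that ended in 10 of 27 alternatives (adjusted p from 0.00456 to 0.112), among them the fit without A1A, A2A and A15A.

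The early and late generations were compared within each sex and tissue, as a mean over both ploidies. In female abdomens 16 of 22 tested members rose from F2 to F14 and none fell (43.9% of all tested genes were called, and 21.6% rose). The median was 1.45, beside 0.06 over all tested genes. In male abdomens 14 of 27 fell from F3 to F15 and 4 rose (53.3% of all genes were called, and 25.9% fell), with a median of −1.04 beside −0.01. In heads the changes were mixed. In females 4 rose and 5 fell of 24 (60.1% of all genes called, 27.4% upward and 32.7% downward). In males 6 rose and 7 fell of 24 (51.4% called, 23.4% upward and 28% downward).

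CPR37 rose in females and fell in males. In female heads it held 0.07, 0.3, 0.44, 0.34 and 0.26 TPM at F2 2N and 45.3, 58.4, 56.9, 45.1 and 43.1 TPM at F14 2N. At 3N it held at most 0.62 TPM at F2 and from 1.70 to 41.6 TPM at F14. In male heads it ran the other way, with 20.3, 40.9, 37.2, 29.7 and 23.4 TPM at F3 1N and 0.28, 0.22, 1.54, 0.68 and 0.2 TPM at F15 1N. Early and late libraries did not overlap in the heads of either sex. The difference (late minus early, mean over both ploidies) was 6.83 ± 0.57 in female heads (adjusted p = 4.45e-08), −4.78 ± 0.48 in male heads (adjusted p = 3.15e-07) and −3.20 ± 0.38 in male abdomens (adjusted p = 2.66e-06). At 2N the sex difference itself shifted between early and late by −11.40 ± 1.05 in heads (adjusted p = 3.01e-10) and by −5.14 ± 1.15 in abdomens (adjusted p = 0.000581).

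CPR48 and CPLCP2 followed CPR37 in heads. CPR48 stood at 745 to 1763 TPM in F2 2N female heads and at 8249 to 13126 TPM in F14 2N ones, while in 1N male heads it fell from 44946 to 142054 TPM at F3 to 1447 to 25080.0 TPM at F15. The groups of 2N females, and those of 1N males, did not overlap between generations. It rose by 2.46 ± 0.60 in female heads (adjusted p = 0.00203, and 3.51 without A35) and fell by 3.16 ± 0.57 in male heads (adjusted p = 0.00017). CPLCP2 rose by 1.39 ± 0.26 in female heads (adjusted p = 0.000176) and fell by 3.31 ± 0.33 in male heads (adjusted p = 3.11e-07). For these genes the 2N sex difference shifted by −6.46 ± 1.22 (CPR48, adjusted p = 4.19e-05) and −5.18 ± 0.61 (CPLCP2, adjusted p = 2.80e-08).

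Of the 6 Cpap3 genes, 3 fell and none rose in female heads, and 2 rose and none fell in male heads. The shares called, 50% and 33.3%, lay below the 60.1% and 51.4% of all tested genes. Of all genes 32.7% fell in female heads and 23.4% rose in male heads. In female heads Cpap3-a1, Cpap3-a2 and Cpap3-e fell, by 2.40 ± 0.59 (adjusted p = 0.00186), 2.28 ± 0.44 (adjusted p = 0.000265) and 1.21 ± 0.25 (adjusted p = 0.000517), and CPR1 fell by 3.60 ± 0.69 (adjusted p = 0.000237). In male heads Cpap3-e rose by 2.12 ± 0.28 (adjusted p = 6.59e-06) and Cpap3-a2 by 1.07 ± 0.34 (adjusted p = 0.013), and CPR16 rose by 1.00 ± 0.19 (adjusted p = 0.000205). For Cpap3-a2 the 2N sex difference shifted by 2.49 ± 0.79 (adjusted p = 0.00727). Over all members, 3 of these shifts were called upward and 7 downward among 27 tested in heads. Of all genes 57.9% were called, 30.6% upward and 27.2% downward.

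In female abdomens most tested members rose as a mean over both ploidies. CPR34 held 2.06, 5.72 and 5.32 TPM at F2 2N and 70.9, 36.4, 33.3, 17.5 and 38.04 TPM at F14 2N, with no overlap, and it rose by 2.04 ± 0.47 over both ploidies (adjusted p = 0.00271). CPR16 rose by 1.76 ± 0.43 (adjusted p = 0.00407) and CPR20 by 1.68 ± 0.52 (adjusted p = 0.0164). The other 2 genes of their run, CPR18 and CPR19, rose as well, and all 4 tested Cpap3 genes rose. The muscle markers Tm1 and Tm2, both present, summed to 509 to 785 TPM in the F2 abdomens and to 739 to 1645 TPM in the F14 ones, and their part in the result was not tested. In female heads that sum ran from 353 to 775 TPM at F2 and from 1110.3 to 3466 TPM at F14, and the 214 odorant receptor genes, markers of the antenna, summed to 40.2 to 974 TPM at F2 and 42.8 to 128 TPM at F14. Their part in the head results was not tested either.

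In male abdomens CPR23 fell by 2.38 ± 0.43 (adjusted p = 0.000165) and Cpap3-b by 1.83 ± 0.27 (adjusted p = 2.54e-05). Cpap3-b stood at 22.6, 26.4, 25.9, 23.1 and 24.9 TPM at F3 1N and at 6.71, 3.57, 3.53, 7.79 and 4.85 TPM at F15 1N, so that each early 1N library lay above each late one. CPR48, at 29.1 and 7.03 TPM in 2 of the 5 F3 1N abdomens and at 1.45 and 4.15 TPM in 2 of the 3 F3 2N ones, was listed at 0 TPM in all 10 late male abdomens. In the other direction, CPR7 rose by 1.80 ± 0.46 (adjusted p = 0.00321), CPR35 by 1.51 ± 0.22 (adjusted p = 1.74e-05) and CPR49 by 0.93 ± 0.19 (adjusted p = 0.000468). At 2N the sex difference in abdomens shifted downward for 19 of 29 members and upward for none (45.1% of all tested genes were called, and 23.1% downward), with a median of −3.03 beside −0.15. The largest shifts among genes over 5 CPM were Cpap3-b with −5.63 ± 0.86 (adjusted p = 5.17e-06), CPR37 and CPR34 with −3.74 ± 0.85 (adjusted p = 0.000678). The muscle sum ran from 2099 to 4516 TPM in early male abdomens and from 1009 to 2448 TPM in late ones. The fat body list of 10 genes, which holds hexamerins and royal jelly protein relatives, summed to 143 to 447 TPM in early male abdomens and to 556 to 1216 TPM in late ones. In male heads it summed to 103 to 276 TPM at F3 and to 266 to 946 TPM at F15, with Mrjpl9 at 0 in F15 1N heads, and the muscle sum to 314 to 2704 TPM and 661 to 1610.1 TPM. The part of either list in the male results was not tested.

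**Figure D3:**
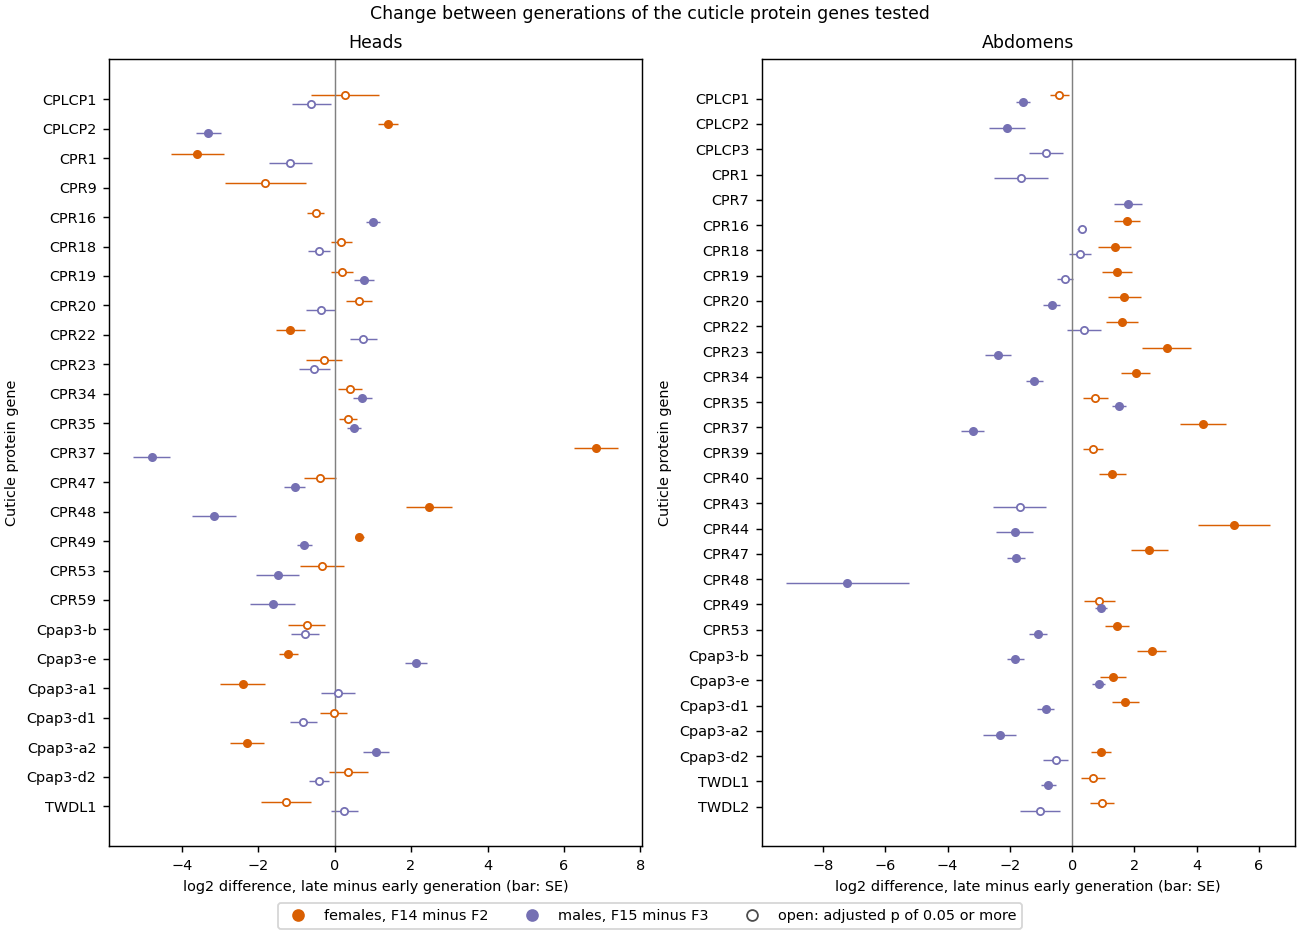
Late minus early generation as log2 differences for the tested genes in female and male heads and abdomens, with bars of 1 SE and open points for an adjusted p of 0.05 or more. In female abdomens the 16 called genes lie to the right of 0, in male abdomens 14 of 18 lie to the left, and CPR37 lies to the right in females and to the left in males.

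Ploidy was compared within each sex, tissue and generation. In F2 female heads 3 of 24 tested members were higher at 3N than at 2N and none was lower (5.82% of all tested genes called, 3.63% upward and 2.18% downward), with a median of 0.26 beside 0.03. CPLCP2 held 4.53, 5.79, 4.72, 4.50 and 5.14 TPM at 2N and 15.98, 12.2, 12.4 and 12.4 TPM at 3N. CPR49 held 168, 202, 204, 178 and 177 TPM at 2N and 406, 251, 259 and 230.5 TPM at 3N. Neither gene overlapped between the ploidies, and the differences were 1.51 ± 0.37 (adjusted p = 0.026) and 0.73 ± 0.18 (adjusted p = 0.023). The CPLCP2 call ended without A35 (adjusted p = 0.0501) and in 7 of its 15 alternatives in all (adjusted p from 0.00316 to 0.228), and that of CPR49 in 4 of 15 (adjusted p from 0.00351 to 0.568). CPR9, of the run of 13 genes on chromosome 5, was the remaining called gene, with at most 0.52 TPM in the 2N libraries and 0.93, 8.66, 6.12 and 6.35 TPM in the 3N ones. It was below 5 CPM, with a highest group mean of 2.00 CPM. Without A25 or A22 no member was called in this comparison, and without A24 only 1 was.

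In F14 female heads 3 of 24 members were lower at 3N and none was higher (3.57% of all genes called, 2.38% upward and 1.18% downward). Of the 24 differences 21 were negative and the median was −0.97, beside 0.01 over all tested genes. CPR35 held 86.99, 138, 133, 91.6 and 179 TPM at 2N and 79.7, 40.6, 36.1, 42.0 and 20.7 TPM at 3N. CPR16 held 248, 253, 361, 195 and 339 TPM at 2N and 158, 151, 84.6, 141 and 129.8 TPM at 3N. The 2N libraries were the higher ones for both genes, without overlap, and the differences were −1.66 ± 0.33 (adjusted p = 0.0142) and −1.22 ± 0.31 (adjusted p = 0.0394). The highest 3N library of both genes was A55, and without it 9 members were called lower. The CPR16 call ended in 9 of 16 alternatives (adjusted p from 0.00302 to 0.355). The CPR35 call ended in 2 of 16, the fit of the compared groups alone (adjusted p = 0.0546) and the fit with A34 (adjusted p = 0.278, the highest of its alternatives, the lowest being 3.57e-05). CPR53, below 5 CPM, was the remaining called gene.

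The change of this ploidy difference between F2 and F14 was called for 3 of 24 members, all downward (6.47% of all genes, 2.7% upward and 3.77% downward), and the median change was −1.42 beside −0.02. CPLCP2 changed by −2.27 ± 0.51 (adjusted p = 0.0186) and CPR34 by −2.25 ± 0.64 (adjusted p = 0.0454). The CPLCP2 call ended in 1 of 24 alternatives, with A34 included (adjusted p from 0.000774 to 0.268). The CPR34 call ended in 16 of 24 alternatives (adjusted p from 0.0025 to 0.268). Without A35 the number of members called was 6, and without A55 it was 5.

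In female abdomens no member was called for ploidy. At F2 edgeR called no gene of the whole table (0% of 10855). It gave 10 of 22 members an unadjusted p below 0.05, and DESeq2 called 1 member. How many of all genes had an unadjusted p below 0.05, or were called by DESeq2, was not counted. Neither the 10 nor the 1 can therefore be set against a background. The median was 1.09 beside −0.04. CPR19 held 16.02, 245 and 221 TPM at 2N and 304, 649, 1043, 593 and 789 TPM at 3N, without overlap. The difference of CPR19 was 1.89 ± 0.76 (adjusted p = 0.263), and the lowest library was A28. At F14 no member was called with edgeR or DESeq2, and edgeR called 0.0553% of all genes. There edgeR's unadjusted p was below 0.05 for 4 of 22, again without a count over all genes. The change between generations was called downward for 4 of 22 members (11.3% of all genes called, 5.78% upward and 5.49% downward), and CPR16, the gene of these over 5 CPM, changed by −2.70 ± 0.84 (adjusted p = 0.0479). That call ended in 17 of 21 alternatives (adjusted p from 0.00669 to 0.0963). The count of 4 ran from 0 to 13 over the fits without a library, with 13 when A57 was left out and 0 when A69 was.

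In F3 male heads 6 of 24 tested members were lower at 2N than at 1N and 1 was higher (12% of all genes called, 5.24% upward and 6.74% downward), with a median of −0.77 beside −0.01. CPR48 held 39346, 10635, 9922, 6016 and 10564.0 TPM at 2N, below each of the 1N values given above. Its difference was −2.61 ± 0.79 (adjusted p = 0.0383). The call ended in 9 of 15 alternatives (adjusted p from 0.0124 to 0.098) and held without A1A, A2A and A15A, at −2.71. The same gene had differences of −2.11 ± 0.78 in F15 male heads (adjusted p = 0.151), −2.46 ± 0.81 in F14 female heads (adjusted p = 0.0916) and −0.31 ± 0.82 in F2 female heads (adjusted p = 0.867).

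CPR22 and CPR37 were also lower at 2N in F3 male heads. CPR22 held 96.1, 128, 23.99, 15.4 and 20.7 TPM at 1N and 13.7, 9.24, 7.12, 8.60 and 6.35 TPM at 2N, a difference of −2.79 ± 0.54 (adjusted p = 0.00295). CPR37 held 13.1, 2.97, 12.5, 1.83 and 4.36 TPM at 2N, all under the 1N values, and differed by −2.34 ± 0.56 (adjusted p = 0.011). Neither gene overlapped between the ploidies. The remaining lower genes were CPR19, CPLCP2 and Cpap3-d2.

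Cpap3-e was the gene that was higher at 2N. It held 3.5, 4.68, 3.08, 2.38 and 3.57 TPM in F3 1N male heads and 49.5, 14.1, 6.93, 36.7 and 20.4 TPM in F3 2N ones, a difference of 2.69 ± 0.41 (adjusted p = 0.000508). At F15 it held 53.3, 37.3, 60.7, 77.5 and 70.9 TPM at 1N and 37.3, 19.2, 33.6, 27.1 and 40.9 TPM at 2N (−1.12 ± 0.38, adjusted p = 0.116). The ploidies did not overlap at F3 and overlapped at F15. The change between generations was −3.81 ± 0.56 (adjusted p = 0.00075). CPR35 also changed, by −1.23 ± 0.37 (adjusted p = 0.0466, a call that ended in 15 of 24 alternatives, with adjusted p from 0.00493 to 0.0893), and these were the 2 members called among 24 (8.64% of all genes, 3.93% upward and 4.72% downward). In F15 male heads no member was called by edgeR (3.25% of all genes called, 2.18% upward and 1.07% downward). DESeq2 called 3, and its calls over all genes were not counted. Of edgeR's 24 differences 22 were negative, with a median of −0.48 beside 0.01 over all tested genes. Without adjustment edgeR's p was below 0.05 for 8 of 24, and how many of all genes passed that limit was not counted. The 214 odorant receptor genes summed to 35.1 to 541 TPM in the F3 1N heads and to 61.5 to 116 TPM in the F3 2N heads, and their part in the result was not tested.

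In F3 male abdomens 5 of 27 members were higher and 6 lower at 2N. This share was near that of all genes, of which 40.9% were called (21.3% upward and 19.6% downward). The median was −0.88 beside 0.05. CPR49 held 16.9, 13.7, 14.7, 16.5 and 15.7 TPM at 1N and 53.5, 98.8 and 65.9 TPM at 2N. TWDL1 held 6.15, 3.62, 2.57, 5.40 and 5.08 TPM at 1N and 19.5, 11.4 and 16.8 TPM at 2N. CPR35 held 19.6, 19.9, 29.5, 21.3 and 19.8 TPM at 1N and 66.03, 85.8 and 53.98 TPM at 2N. For these 3 genes each 2N library lay above each 1N library, and the differences were 2.53 ± 0.27 (adjusted p = 4.51e-06), 2.11 ± 0.35 (adjusted p = 0.000177) and 1.92 ± 0.31 (adjusted p = 0.000148). Cpap3-d2 and CPLCP3 were the other 2 higher genes.

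Among called genes over 5 CPM, CPR37, CPR34 and CPR47 had the lowest differences in F3 2N male abdomens. CPR37 held 70.8, 28.3, 7.80, 85.4 and 72.1 TPM at 1N and 3.79, 5.61 and 6.65 TPM at 2N, a difference of −2.97 ± 0.61 (adjusted p = 0.00117). CPR34 held 893, 839, 813, 943 and 871 TPM at 1N and 269, 304 and 248 TPM at 2N, a difference of −1.38 ± 0.44 (adjusted p = 0.0197). Neither gene overlapped between the ploidies. CPR47, whose libraries overlapped, differed by −1.36 ± 0.44 (adjusted p = 0.0218). Without A20 the lower genes numbered 1 and without A18 they numbered 2, the CPR34 call ended without A20, A18 or A16, and the CPR47 call without A20 or A16 (highest adjusted p over the alternatives 0.0662 and 0.0767, lowest 3.61e-05 and 0.00354). The fat body list summed to 143 to 242 TPM in the 1N abdomens and 398 to 447 TPM in the 2N abdomens, and its part in the result was not tested.

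At F15 fewer members were called. TWDL1 held 8.97, 9.39, 5.61, 8.14 and 7.65 TPM in F15 1N abdomens and 3.69, 1.44, 3.82, 1.22 and 2.95 TPM in 2N ones, each below each 1N value, and it was lower at 2N by 1.52 ± 0.32 (adjusted p = 0.0119). It and Cpap3-d2 were the 2 of 27 members called (4.11% of all genes, 1.18% upward and 2.93% downward), and in a fit of these 2 groups alone neither was. The change of the ploidy difference between generations was called for 7 of 27 members, 5 downward and 2 upward (21.5% of all genes, 12% downward and 9.54% upward). TWDL1 changed by −3.63 ± 0.47 (adjusted p = 7.68e-05), CPR49 by −2.78 ± 0.36 (adjusted p = 8.38e-05), CPR35 by −1.47 ± 0.41 (adjusted p = 0.0162) and CPR37 by 3.63 ± 0.78 (adjusted p = 0.00342). The CPR35 call ended without A18 (adjusted p = 0.0577, the highest of its 21 alternatives, the lowest being 0.000994). CPR19 changed by 1.54 ± 0.50 (adjusted p = 0.0355), a call that ended in 6 of 21 alternatives (adjusted p from 0.00748 to 0.106).

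**Figure D4:**
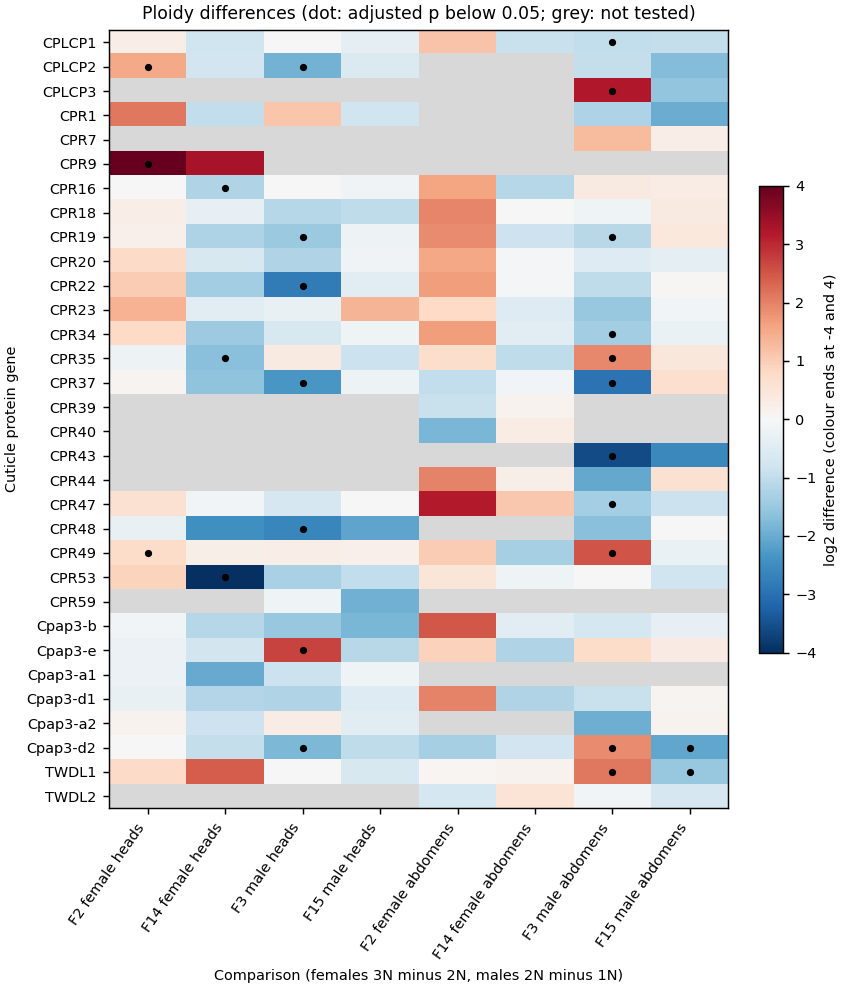
Log2 ploidy difference (females 3N minus 2N, males 2N minus 1N) of each tested gene (rows) in 8 comparisons (columns), in colour that ends at −4 and 4, with a dot for an adjusted p below 0.05 and grey for genes not tested. Cpap3-e in F3 male heads and TWDL1, CPR49 and CPR35 in F3 male abdomens are red with a dot, and TWDL1 in F15 male abdomens is blue with a dot.

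Family sums were set mainly by CPR genes. Summed over its members, CPR held from 996 ± 276 TPM (SD, n = 3) in F2 2N female abdomens to 80483 ± 39890 TPM (SD, n = 5) in F3 1N male heads, and without CPR48 the highest sum was 6031 ± 436 TPM (SD, n = 5) in F3 1N male abdomens. Cpap3 sums were lowest in F2 2N female abdomens (2.96 ± 1.47 TPM, SD, n = 3) and highest in F15 1N male heads (170 ± 63.6 TPM, SD, n = 5), close to the 167 ± 98.5 TPM (SD, n = 5) of F3 1N male heads. Between those groups Cpap3-e stood at 3.44 TPM at F3 and 59.9 TPM at F15, and Cpap3-d1 at 112 TPM and 57.7 TPM (group means). CPLCP ran from 0.410 ± 0.130 TPM (SD, n = 3) in F2 2N female abdomens to 52.1 ± 24.98 TPM (SD, n = 5) in F3 1N male heads. TWDL stayed at 16.7 ± 4.2 TPM (SD, n = 3) or below and was highest in F3 2N male abdomens. The families were not tested against each other.

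Other genes of the cuticle were read from lists chosen with these results known. The apidermins apd-1 and apd-3, cuticle proteins described in bees, were 2 of these. The gene apd-3 rose by 4.68 ± 0.65 in female heads (adjusted p = 1.10e-05) and fell by 4.23 ± 0.49 in male heads (adjusted p = 1.55e-06), and both genes of the list rose in females and fell in males in both tissues. Cht5, a chitinase of the moult, stood at 150.7 to 634 TPM in 16 of 18 male abdomens, at 85.5 and 101 TPM in the remaining 2, and at most 37.1 TPM in female ones, and was higher in 2N male abdomens by 4.46 ± 0.60 (adjusted p = 5.45e-08). Of the 9 yellow genes, several of which act in pigmentation in Drosophila, 7 were higher and 1 was lower in 2N male abdomens. In that comparison 85.8% of all tested genes were called, 45.9% higher and 39.9% lower in males. The yellow gene that was lower, Y-g2b, had 0.15 to 51.7 TPM in the 8 abdomens of 2N females and at most 0.12 TPM in those of 2N males. CYP4G43 and CYP4G44, of the enzyme group that makes cuticular hydrocarbons in insects, were both higher at 2N in F3 male abdomens, by 1.97 ± 0.30 (adjusted p = 8.17e-05) and 2.63 ± 0.30 (adjusted p = 7.71e-06).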

How the data were processed

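The deposited tables give expected counts and TPM per gene. STAR 2.7.11a and RSEM 1.3.1 are named in the submitters' processing notes. The deposited TPM values were used for levels only. RSEM divides reads that match several genes by an estimate. Build, annotation and strand setting: not given in the sources used here. Expected counts were rounded, scaled by TMM, filtered with filterByExpr and compared by edgeR's quasi-likelihood test, with robust estimates (edgeR 4.0.16, R 4.3.3). Ploidy, generation and their interaction were fitted per sex and tissue, sex per tissue and tissue per sex, and p-values were adjusted by Benjamini-Hochberg over all genes of a fit. The standard error is the log2 difference divided by the square root of F. Library A34 was left out.

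The members and lists were chosen with earlier results of these data known. Genes with full values are, for each of 22 comparisons, the 3 highest and 3 lowest called members with at least 5 CPM in a compared group, and the highest member of each family by TPM. Other genes named were picked after their values were seen. Alternatives were RLE size factors, no filter, DESeq2 1.42.0, A34 included, A35 left out, A1A, A2A and A15A left out, the compared groups alone, and each library left out in turn. On data simulated with 200 changed genes, the ploidy test in F3 male abdomens found 97% of 4-fold and 17% of 2-fold changes, and the test of tissue in males 100% and 97%. The simulation gave every gene the same coefficient of variation, 0.35, and changed only genes above a set count. Its rates therefore need not hold for members that vary more or have fewer counts. All 46 symbols matched the reference table. CPR46 and CPR57 passed the filter in no fit. The mean TPM had the same sign of difference as the test for every called member in the 16 comparisons of ploidy, generation, sex and tissue.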

Additional observations from a re-analysis of the deposited data

Results flagged for a closer look

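In 258 combinations of a gene and a group with 4 or 5 libraries, 17 had a library far from the rest of its group. In all, 24 genes were examined, and the 17 fell on 11 genes and 7 libraries. Chance gives such a gap in about 1 in 20 groups.

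Library A35 (F2 3N female heads) accounted for 5 of them. It held 85.7 TPM of CPR16 (the others 369 to 410.2), 73.2 TPM of CPR19 (431 to 501), 16.8 TPM of CPR22 (177 to 275), 17.9 TPM of CPR34 (212 to 228) and 15.98 TPM of CPLCP2 (12.2 to 12.4). In F3 1N male abdomens A8 held 391 TPM of CPR18 (146 to 176), 108 TPM of CPR20 (62.4 to 68.9) and 29.5 TPM of CPR35 (19.6 to 21.3). In F15 1N male abdomens A78 held 31.5 TPM of CPR18 (165 to 268), 726 TPM of CPR19 (1768 to 1953) and 3.34 TPM of Cpap3-d1 (6.59 to 8.35). In F14 2N female heads A62 held 111 TPM of CPR34 (234 to 290.2) and 339.8 TPM of CPR49 (261 to 265). In F2 3N female abdomens A40 held 6.44 TPM of CPR34 (17.6 to 18.6) and 0.63 TPM of Cpap3-e (2.14 to 2.75). CPR16 stood at 1055 TPM in A73 of F15 1N male heads (685 to 774), and CPR18 at 1.74 TPM in A53 of F14 3N female heads (13.1 to 15.96).

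Among the genes chosen for naming (at least 5 CPM), 18 differences changed by edgeR's test of the change itself, and the counts over all members are given above. The ploidy difference changed between generations in female heads for CPLCP2 (log2 −2.27) and CPR34 (−2.25), in female abdomens for CPR16 (−2.70), and in male heads for Cpap3-e (−3.81) and CPR35 (−1.23). In male abdomens it changed for TWDL1 (−3.63), CPR49 (−2.78), CPR35 (−1.47), CPR37 (3.63) and CPR19 (1.54). The 2N sex difference shifted between early and late in heads for CPR37 (−11.40), CPR48 (−6.46), CPLCP2 (−5.18), Cpap3-a2 (2.49) and CPR22 (1.89, a call that ended in 7 of 27 alternatives, with edgeR adjusted p from 0.00374 to 0.0764), and in abdomens for Cpap3-b (−5.63), CPR37 (−5.14) and CPR34 (−3.74). A34, which entered no comparison, held 403 TPM of CPR39, against 0 to 2.71 TPM in the other libraries of its label.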

How the results depend on the processing

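No paired analysis was possible because the library numbers are unique across the groups and the replicate numbers used here only name libraries in accession order. Of 1821 alternative values of 75 named results, 1711 kept direction and side of the threshold, 110 lost the call and none reversed. The cause of the changes below was not tested. With A34 included the members called were 0 for ploidy in F2 female heads, 0 in F14 female heads, 0 for the change between them, and 7 for sex in heads. With A35 also left out they were 7 in F14 female heads and 6 for the change. DESeq2 called 7 and 5 there, 1 in F2 female abdomens and 3 in F15 male heads. For none of the alternatives were the calls over all genes counted, so these counts have no background beside them. With the compared groups alone the counts were 1 in F14 female heads, 3 in F15 male heads, 17 in F3 male abdomens and 0 in F15 male abdomens. Without A1A, A2A and A15A they were 3 in F15 male heads and 6 for the change in male heads. The change in female abdomens fell to 2 with RLE factors and to 1 without a filter. With each library left out in turn, the counts for ploidy ran from 0 to 3 in F2 female heads, 1 to 9 in F14 female heads, 0 to 3 in F14 female abdomens, 0 to 2 in F15 male heads, 6 to 12 in F3 male abdomens and 1 to 2 in F15 male abdomens. For the change between generations they ran from 2 to 6 in female heads, 0 to 13 in female abdomens and 1 to 3 in male heads. A limit of 5 TPM kept 28 genes, and including A34 kept 36. In simulated data the F2 and F3 ploidy tests found 17% to 33% of 2-fold changes, and those at F14 and F15 were not simulated. These rates hold for the simulated spread, which was not matched to the members.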
